A study of Mus musculus with 16 samples.

Results

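Innate receptors and the immunoreceptor tyrosine-based activation motif (ITAM) adaptors that carry their signals were followed at the RNA level in CD8+ T cells. The genes were chosen by name, with earlier results of these data known. They were Ncr1, Tyrobp, Fcer1g, Hcst, Cd244a, Lat2, Syk, Sh2d1b1, Cd160 and Fcgr3, which makes 10 of the 55401 genes deposited. All 10 were among the 15277 genes with enough counts to be tested. By the study's methods the cells were splenic CD8+ T cells of OT-I mice, activated for 3 days with OVA peptide. They were then kept for 4 days with IL-15 (TM, memory) or IL-2 (TE, effector). The groups were TPdh-/- TM (libraries 13 to 16), WT TM (libraries 9 to 12), TPdh-/- TE (libraries 5 to 8) and WT TE (libraries 1 to 4), with 4 libraries in each. TPdh-/- mice carried the floxed allele B6.129P2-Pdha1tm1ptl/J with B6.Cg-Tg(Cd4-cre)1Cwi/BfluJ, so that Cre acted from the Cd4 promoter in T cells. Mice of both sexes aged 8 to 12 weeks were used. The OT-I receptor and the activation step are given there for in vitro differentiation in general, for all 4 groups alike. The sample titles name neither. No label states which libraries came from separate animals, so p-values measure the spread between these libraries, which may be technical. The mice that the study's RNA sequencing legend names for a condition outnumber the libraries a group analysed here, and how mice map to libraries is not given in the sources used here.

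NK cell receptors such as NKp46 (Ncr1) and CD16 (Fcgr3) have no signalling tail of their own. They sit in the membrane with small adaptor chains, DAP12 (Tyrobp) or the Fc receptor gamma chain (Fcer1g), whose tails hold an ITAM. Phosphorylated ITAMs recruit the kinase Syk, while the T cell receptor does the same through CD3 and CD247 chains and Zap70. DAP10 (Hcst) carries a different motif that binds phosphoinositide 3-kinase, and 2B4 (Cd244a) signals through tyrosine switch motifs that bind small adaptors of the SAP family, among them EAT-2 (Sh2d1b1). Resting CD8+ T cells rely on the T cell receptor chains, and NK cells on the innate ones.

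The tyrosine motifs are shown because they set these adaptors apart from each other. Coding bases were read 5′ to 3′ from GENCODE M21 transcripts, with the tyrosine codons that define each motif in capitals. Tyrobp and Fcer1g each hold an ITAM of 15 codons with 7 codons between its tyrosine-led parts, at codons 92 to 106 and 65 to 79. Hcst has a single tyrosine followed by methionine at the third place after it, at codon 72, and no ITAM is printed for it. Cd244a holds 4 switch motifs, with tyrosines at codons 266, 325, 344 and 369 of 397.
Tyrobp ITAM: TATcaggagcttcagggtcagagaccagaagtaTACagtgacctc
Fcer1g ITAM: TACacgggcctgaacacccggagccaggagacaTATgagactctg
Hcst motif: TACatcaacatg
Cd244a motif 1: acaataTATgaatatgtc
Cd244a motif 2: accatgTACtctatgata
Cd244a motif 3: acagtaTATtcagtagtc
Cd244a motif 4: accgtgTACgaggaggtt

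Promoters are printed for 2 genes that were higher in TPdh-/- TM cells and for Hcst, which did not pass the test. The windows are RefSeq sequence of GRCm38.p6, from 250 bases before to 50 bases after the start site, and an entry was found for 8 of the 10 genes (not for Tyrobp and Lat2). Capitals mark the letters TGTGGT (a core that RUNX factors bind) and AGGAAG (a core that ETS factors bind), searched on either strand. No match of any motif searched overlapped another.
Ncr1, chr7:4337474-4337773, plus strand: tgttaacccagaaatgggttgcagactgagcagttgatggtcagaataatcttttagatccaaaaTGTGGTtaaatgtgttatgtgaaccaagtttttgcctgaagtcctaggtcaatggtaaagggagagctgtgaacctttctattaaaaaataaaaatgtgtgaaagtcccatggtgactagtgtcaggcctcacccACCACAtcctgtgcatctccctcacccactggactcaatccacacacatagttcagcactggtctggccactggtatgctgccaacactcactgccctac
Fcer1g, chr1:171234300-171234599, minus strand: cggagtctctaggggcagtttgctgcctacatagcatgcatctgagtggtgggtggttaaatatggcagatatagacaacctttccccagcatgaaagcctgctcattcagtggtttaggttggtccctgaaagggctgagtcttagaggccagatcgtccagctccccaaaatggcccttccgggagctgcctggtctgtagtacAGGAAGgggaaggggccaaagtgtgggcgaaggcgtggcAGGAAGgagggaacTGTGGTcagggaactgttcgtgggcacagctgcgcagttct
Hcst, chr7:30419805-30420104, minus strand: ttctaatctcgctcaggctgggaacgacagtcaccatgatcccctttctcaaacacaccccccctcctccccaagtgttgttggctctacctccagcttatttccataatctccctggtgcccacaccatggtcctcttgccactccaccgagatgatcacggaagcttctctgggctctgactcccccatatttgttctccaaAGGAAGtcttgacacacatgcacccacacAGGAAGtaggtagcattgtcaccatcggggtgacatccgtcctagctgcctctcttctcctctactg
TGTGGT stood in 4 of the 8 promoters (Ncr1 with 2 matches, Fcer1g, Sh2d1b1 and Cd160), against 16.8% of all 32851 promoter windows. AGGAAG stood in 4 of the 8 (Fcer1g and Hcst with 2 matches each, Cd160 and Fcgr3), against 35.4% of all windows. CAGGTG, an E-box of ZEB and E proteins, was found in 2 of the 8 (Syk and Cd160) against 20.2% of all windows, and the AP-1 letters TGANTCA in 2 (Cd244a and Sh2d1b1) against 7.8%. The T-box letters AGGTGTNA were in none of the 8, and in 3.0% of all windows. A match of letters is a description of the window and no measured binding site.

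Library totals ran from 53007257 to 73507566 counts. Chi-square per degree of freedom between libraries of a group ran from 8.11 to 43 in pairs without libraries 5 and 12, from 53.7 to 70.3 in pairs with WT TM library 12 and from 23.4 to 61.3 in pairs with TPdh-/- TE library 5. Leaving out both changed no call of any of the 10 genes. Pdha1, the targeted gene, had 153 ± 8.51 CPM in TPdh-/- TM, against 178 ± 11.6 CPM in WT TM (SD, n = 4 each). TPdh-/- TE libraries averaged 153 ± 4.21 CPM, against 161 ± 0.791 CPM for WT TE libraries. A gene total takes in exons outside the floxed part, so it does not check the deletion.

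In TM cells 9 of the 10 genes were higher in TPdh-/- than in WT and none was lower, where 11.0% of all tested genes were called higher and 7.27% lower (18.3% in either direction). No gene of the 10 was lower at an unadjusted p under 0.05 in edgeR either, nor in DESeq2 or limma-trend. Hcst was the gene that did not pass. Sh2d1b1 had enough counts to be tested only through TPdh-/- TM, the group where it is high. The counts of called genes that include it were thus partly set by the filter. For all 9 the 4 TPdh-/- TM libraries lay above the 4 WT TM libraries, which held for 12% of all tested genes. The median log2 difference of the 10 genes was 2.72, beside -0.0048 over all tested genes. The 10 genes were chosen with earlier results of these data known. The shares of all tested genes are therefore given as description, and no test of the set was run. In TE cells the same genes divided: 3 were higher in TPdh-/- (17.3% of all tested genes), 3 were lower (14.3%) and 4 did not pass, where 31.6% of all tested genes were called in either direction. The difference between the genotype effects, TM minus TE, was positive and passed for 7 of the 10, where 8.05% of all tested genes were called positive and 7.51% negative (15.6% in either direction). None of the 10 was called negative by edgeR, DESeq2 or limma-trend, and 1, Ncr1, was negative at an unadjusted p under 0.05 in edgeR. A call is an adjusted p under 0.05 from edgeR's quasi-likelihood test over all tested genes. Levels are CPM, here counts set relative to the TMM-adjusted total of each library, with the SD of 4 libraries, and log2 differences carry the standard error of the spread between libraries. In RNA from whole cultures, fewer cells of a kind and less RNA per cell cannot be told apart.

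**Figure D1:**
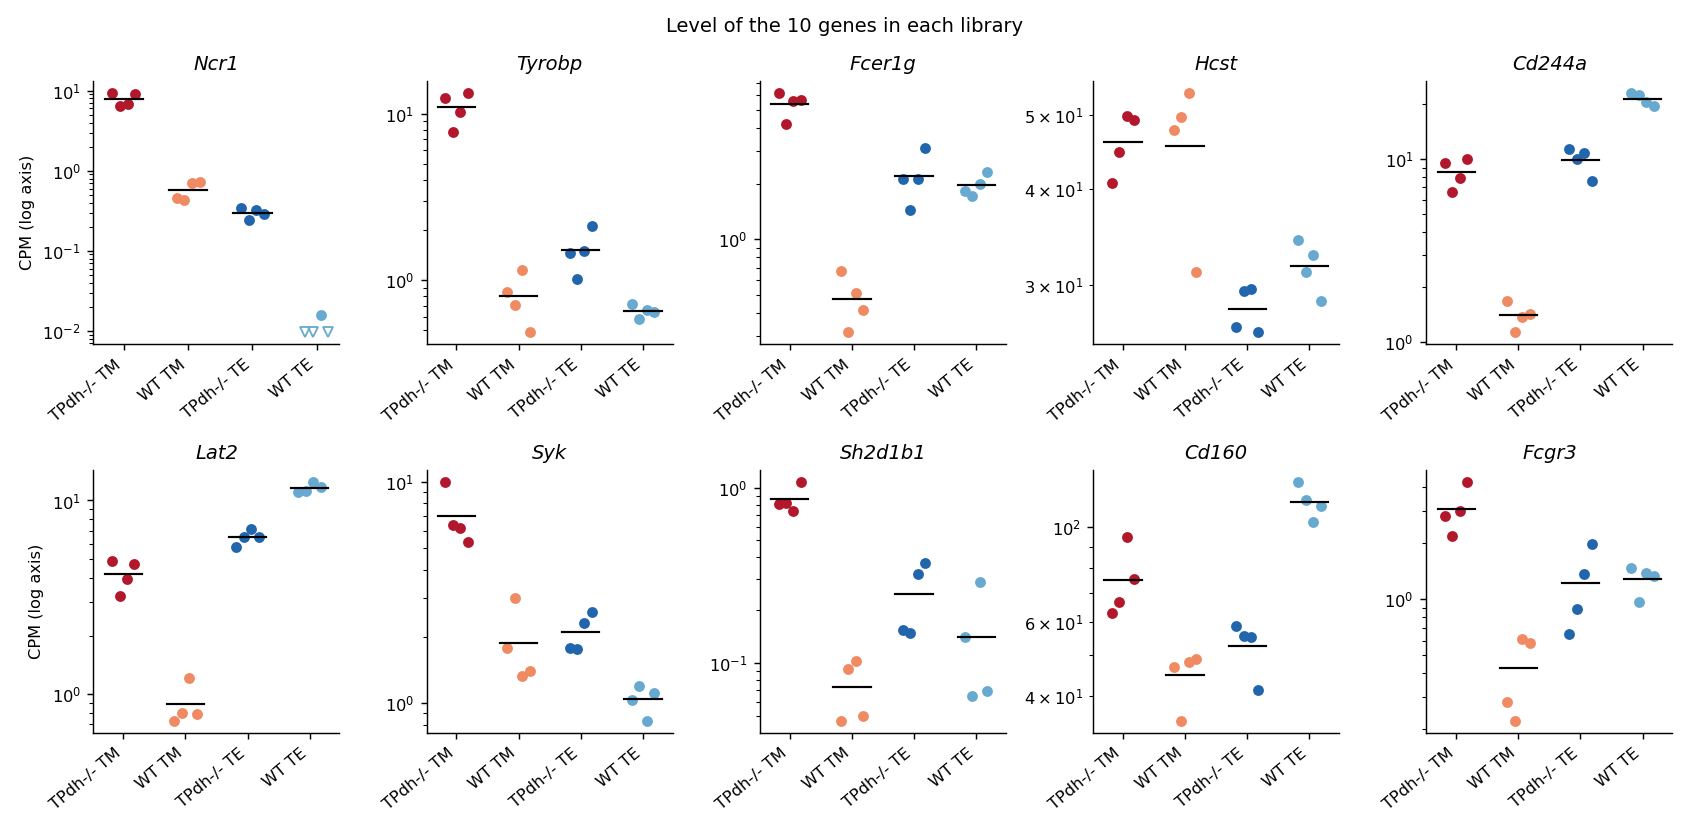
CPM of each of the 10 genes on a log axis, 1 point per library and a line at the group mean; open triangles mark libraries with 0 counts (Ncr1 in WT TE, where no mean is drawn). In 9 panels the TPdh-/- TM points lie wholly above the WT TM points, and the Hcst points of these groups overlap.

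The adaptor Tyrobp had 12.4, 7.77, 10.2 and 13.3 CPM in TPdh-/- TM libraries, against 0.842, 0.703, 1.15 and 0.484 CPM in WT TM libraries. The lowest TPdh-/- TM library was several times above the highest WT TM library. The log2 difference was 3.78 ± 0.302 (SE, 13.7-fold, adjusted p = 1.75e-08, edgeR). In TE cells Tyrobp had 1.46, 1.01, 1.49 and 2.10 CPM in TPdh-/- libraries, against 0.718, 0.585, 0.655 and 0.641 CPM in WT libraries, again without overlap (log2 difference 1.21 ± 0.218, adjusted p = 0.00159, edgeR). The genotype effect was larger in TM than in TE by 2.57 ± 0.373 on the log2 scale (adjusted p = 9.06e-05, edgeR). In WT cells the TM and TE libraries overlapped and the test was not passed (0.29 ± 0.255, adjusted p = 0.352, edgeR).

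Fcer1g had 6.17, 4.19, 5.57 and 5.66 CPM in TPdh-/- TM libraries, against 0.671, 0.315, 0.513 and 0.417 CPM in WT TM libraries. That is a log2 difference of 3.48 ± 0.247 (11.1-fold, adjusted p = 3.69e-08, edgeR). Its TE libraries overlapped, with 2.11, 1.44, 2.11 and 3.10 CPM in TPdh-/- and 1.83, 1.72, 1.98 and 2.30 CPM in WT (0.16 ± 0.239, adjusted p = 0.615, edgeR). The 2 ITAM adaptors thus differed in their culture pattern: in WT cells Fcer1g was lower in TM than in TE by a log2 difference of -2.01 ± 0.233 (adjusted p = 1.05e-06, edgeR), and in TPdh-/- cells it was higher in TM by 1.31 ± 0.253 (adjusted p = 2.34e-05, edgeR). The interaction was 3.32 ± 0.344 (adjusted p = 3.06e-06, edgeR).

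Hcst lies tail to tail with Tyrobp on chromosome 7, with 126 bases between the gene ends, yet it passed the test between cultures and not between genotypes. It had 40.7, 44.7, 49.9 and 49.2 CPM in TPdh-/- TM libraries, against 47.8, 49.7, 53.4 and 31.2 CPM in WT TM libraries. WT TM library 12 was the lowest of these 8 (log2 difference 0.02 ± 0.188, adjusted p = 0.938, edgeR). In TE cells it had 26.4, 29.4, 29.6 and 26.0 CPM in TPdh-/- and 34.3, 31.2, 32.8 and 28.6 CPM in WT (-0.19 ± 0.0751, adjusted p = 0.265, edgeR). Without WT TM library 12 the TE difference was -0.20 and passed (adjusted p = 0.0444, edgeR). Hcst was higher in TM than in TE in TPdh-/- cells (0.73 ± 0.0841, adjusted p = 5.02e-05) and in WT cells (0.52 ± 0.184, adjusted p = 0.0011, edgeR). On the TPM scale, which allows for gene length, it was the most abundant of the 10 genes in every group, with 366 ± 26.5 TPM in TPdh-/- TM and 348 ± 60.4 TPM in WT TM, and among TE cells 211 ± 16.6 TPM in TPdh-/- and 216 ± 13.7 TPM in WT. The TPM of Hcst was 6.38 to 11.4 times that of Tyrobp in TPdh-/- TM libraries, against 89.5 to 137 times in WT TM libraries.

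Tyrobp and Fcer1g together made up 2.94% ± 0.578 of the summed TPM of 6 ITAM chains (Tyrobp, Fcer1g, Cd247, Cd3e, Cd3d and Cd3g) in TPdh-/- TM, against 0.217% ± 0.0527 in WT TM (SD, n = 4 each). Among TE cells the share was 0.769% ± 0.215 in TPdh-/- and 0.383% ± 0.0419 in WT. The 4 T cell receptor chains themselves summed to 2007 to 2062 TPM in TPdh-/- TM libraries, against 2098 to 2172 TPM in WT TM libraries. Among TE libraries they summed to 1493 to 1727 TPM in TPdh-/-, against 1981 to 2111 TPM in WT. The innate chains were thus a small share in every library, and their share differed with no overlap between TPdh-/- and WT in both cultures. In TE, where the T cell receptor sums were lower in TPdh-/-, the summed TPM of Tyrobp and Fcer1g itself overlapped. It was 8.58 TPM in TPdh-/- TE library 6, against 8.86 TPM in WT TE library 4. Set against Cd247, the chain whose place it can take, Fcer1g reached 6.34% to 8.99% of the TPM in TPdh-/- TM libraries, against 0.369% to 0.8% in WT TM libraries. No test was run on these shares.

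**Figure D2:**
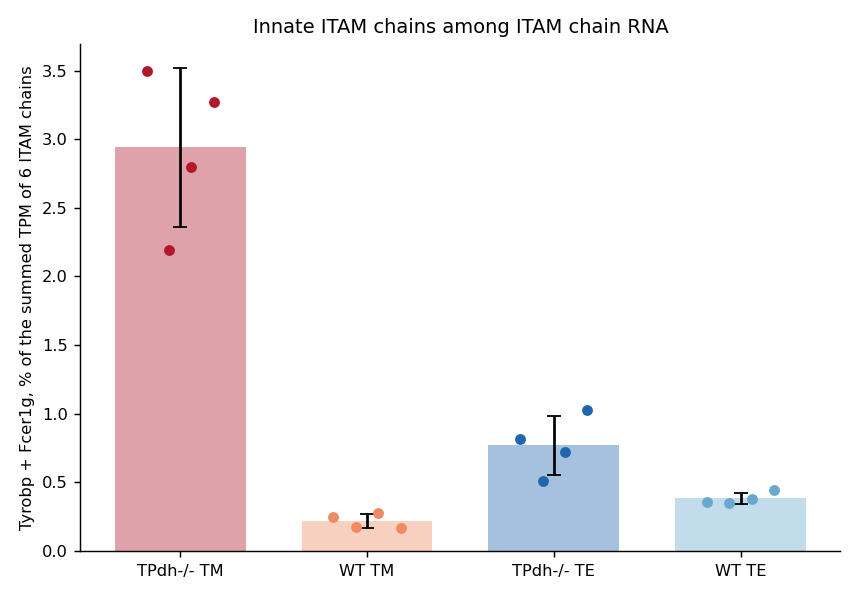
Share of Tyrobp and Fcer1g in the summed TPM of 6 ITAM chains, in percent; points are libraries, bars the mean of 4 and error bars the SD. TPdh-/- TM libraries lie at 2.19% to 3.50%, and all other libraries at 1.03% or less.

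Among the receptors Ncr1, which encodes NKp46, had the widest range. It had 9.36, 6.47, 6.85 and 9.09 CPM in TPdh-/- TM libraries, against 0.452, 0.426, 0.702 and 0.734 CPM in WT TM libraries (log2 difference 3.77 ± 0.238, 13.7-fold, adjusted p = 5.06e-09, edgeR). In TE cells it had 0.343, 0.242, 0.324 and 0.287 CPM in TPdh-/- libraries, against 0, 0, 0.0160 and 0 CPM in WT libraries. These are 77 counts over the 4 TPdh-/- TE libraries, against 1 count over the 4 WT TE libraries. Their ratio was 73.0 (95% exact counting interval 12.7 to 2921, which covers counting error only), and the call was made in edgeR (adjusted p = 1.3e-06). No fitted fold is given against WT TE, whose level rests on 1 count. For the same reason the interaction of Ncr1, which did not pass (adjusted p = 0.116, edgeR), has no size here. Within TPdh-/- cells Ncr1 was 26.5-fold higher in TM than in TE (4.73 ± 0.169, adjusted p = 1.61e-11, edgeR).

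Cd244a, which encodes the SLAM family receptor 2B4, was higher in TPdh-/- TM and lower in TPdh-/- TE. It had 9.56, 6.59, 7.84 and 9.97 CPM in TPdh-/- TM libraries, against 1.68, 1.13, 1.37 and 1.43 CPM in WT TM libraries (2.59 ± 0.18, 6.01-fold, adjusted p = 1.62e-08, edgeR). It had 11.4, 10, 10.8 and 7.58 CPM in TPdh-/- TE libraries, against 23.0, 22.3, 20.5 and 19.6 CPM in WT TE libraries (-1.10 ± 0.141, adjusted p = 9.5e-06, edgeR). The levels of the TPdh-/- cultures therefore lay between those of the WT cultures. In WT cells TM was below TE by a log2 difference of -3.92 ± 0.128 (adjusted p = 3.25e-12, edgeR), whereas in TPdh-/- cells the TM and TE libraries overlapped (-0.23 ± 0.189, adjusted p = 0.142, edgeR). Without TPdh-/- TE library 8 that last difference was -0.33 and passed (adjusted p = 0.0291, edgeR). The interaction of Cd244a was the largest of the 10 genes with a fitted value, at 3.69 ± 0.229 (adjusted p = 2.57e-08, edgeR).

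Cd160, a receptor for the herpesvirus entry mediator on NK and cytotoxic T cells, was likewise higher in TPdh-/- TM and lower in TPdh-/- TE, by smaller steps in TM. It had 62.9, 66.6, 94.9 and 75.6 CPM in TPdh-/- TM libraries, against 46.9, 35.0, 48.3 and 49.0 CPM in WT TM libraries (0.74 ± 0.175, adjusted p = 0.000719, edgeR). In TE cells it had 58.6, 55.4, 55.1 and 41.3 CPM in TPdh-/- libraries, against 128, 116, 103 and 112 CPM in WT libraries (-1.13 ± 0.130, adjusted p = 6.66e-06, edgeR). Neither pair of groups overlapped, and the interaction was 1.87 ± 0.218 (adjusted p = 4.56e-06, edgeR). Cd160 ranked second of the 10 genes by TPM in every group, with means of 97.9 TPM in TPdh-/- TM and 58.6 TPM in WT TM, and among TE cells 69.5 TPM in TPdh-/- and 137 TPM in WT.

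Fcgr3, which encodes the low-affinity IgG receptor CD16, had 2.80, 2.19, 3 and 4.29 CPM in TPdh-/- TM libraries, against 0.281, 0.222, 0.616 and 0.584 CPM in WT TM libraries (2.84 ± 0.395, 7.17-fold, adjusted p = 1.85e-05, edgeR). Its TE groups overlapped, with 0.651, 0.889, 1.37 and 1.99 CPM in TPdh-/- and 1.47, 0.974, 1.39 and 1.33 CPM in WT (-0.08 ± 0.366, adjusted p = 0.869, edgeR). TPdh-/- TE libraries were the more spread of these 2 groups. The interaction was 2.93 ± 0.538 (adjusted p = 0.000444, edgeR). Of the 50-base stretches in Fcgr3 transcripts 9.58% are shared with Fcgr2b, the inhibitory Fc receptor nearby, so part of its reads may be divided between these genes.

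Syk, the kinase that docks on innate ITAMs, was higher in TPdh-/- in both cultures. It had 10, 6.36, 6.16 and 5.34 CPM in TPdh-/- TM libraries, against 1.78, 2.98, 1.32 and 1.40 CPM in WT TM libraries (1.90 ± 0.328, 3.74-fold, adjusted p = 2.53e-05, edgeR). In TE cells it had 1.77, 1.75, 2.30 and 2.58 CPM in TPdh-/- libraries, against 1.03, 1.19, 0.831 and 1.11 CPM in WT libraries (1.01 ± 0.175, adjusted p = 0.00625, edgeR). Library 13 was highest among TPdh-/- TM libraries and library 10 among WT TM libraries. The same libraries were highest for the summed B cell markers, at 41.8, 25.1, 17.2 and 9.18 TPM in TPdh-/- TM libraries 13 to 16, against 11.4, 21.4, 11.8 and 10.4 TPM in WT TM libraries 9 to 12. B cells express Syk. Library 16, with fewer B cell marker transcripts than any WT TM library, had 5.34 CPM of Syk, above all WT TM libraries. The part of B cells in the Syk difference was not tested. The interaction of Syk did not pass (0.89 ± 0.371, adjusted p = 0.0963, edgeR), and did so without WT TM library 10 (1.2, adjusted p = 0.0128, edgeR). In TPM Syk stood at 3.12% to 6.57% of Zap70 in TPdh-/- TM libraries, against 0.651% to 1.73% in WT TM libraries.

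**Figure D3:**
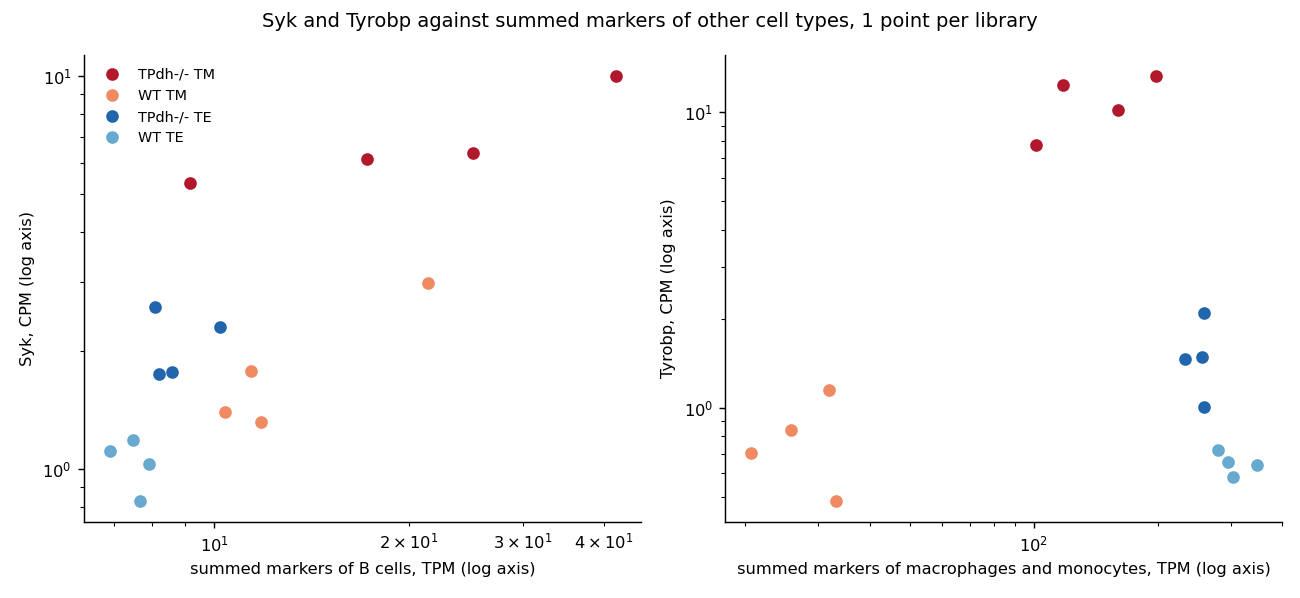
Syk against the summed TPM of 8 B cell markers (left) and Tyrobp against that of 16 macrophage and monocyte markers (right), 1 point per library, all axes logarithmic. At a B cell sum of 9.18 TPM Syk stood at 5.34 CPM in TPdh-/- TM library 16, and the macrophage sums of TE libraries, 232 to 348 TPM, consist mostly of Ccr2.

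Lat2, the adaptor NTAL that takes the place of LAT behind Fc receptors, had 4.87, 3.21, 3.95 and 4.69 CPM in TPdh-/- TM libraries, against 0.729, 0.805, 1.22 and 0.794 CPM in WT TM libraries (2.23 ± 0.207, 4.69-fold, adjusted p = 4.2e-08, edgeR). Among TE cells Lat2 was lower in TPdh-/-, with 5.74, 6.46, 7.10 and 6.48 CPM, against 11.1, 11.2, 12.5 and 11.7 CPM in WT (-0.85 ± 0.0726, adjusted p = 8.8e-05, edgeR). The interaction was 3.08 ± 0.220 (adjusted p = 1e-07, edgeR), which puts Lat2 with Cd244a and Cd160. Lat2 shares exon positions with Rfc2 on the other strand, and 31.85% of its 50-base stretches are also in Rfc2 transcripts. The libraries do not keep the strand, so these reads cannot be assigned to either gene. Rfc2 averaged 48.9 CPM in TPdh-/- TM, against 50.9 CPM in WT TM (log2 difference -0.06, adjusted p = 0.519, edgeR). Its TE mean was 77.7 CPM in TPdh-/-, against 94.3 CPM in WT (-0.28, adjusted p = 0.000679, edgeR).

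Sh2d1b1, which encodes EAT-2, a partner of Cd244a in NK cells, was the least abundant of the 10 genes in TM by TPM. Its counts were enough to be tested only through TPdh-/- TM, the group where it is high. Its calls are therefore given as description. It had 0.808, 0.818, 0.740 and 1.08 CPM in TPdh-/- TM libraries, against 0.0468, 0.0926, 0.103 and 0.05 CPM in WT TM libraries, or 203 counts over the TPdh-/- libraries and 17 over the WT libraries (3.54 ± 0.230, 11.6-fold, adjusted p = 1.91e-05, edgeR). In TE cells it had 0.154, 0.148, 0.320 and 0.371 CPM in TPdh-/- and 0.141, 0.0649, 0.288 and 0.0693 CPM in WT, with overlap (0.80 ± 0.505, adjusted p = 0.168, edgeR). Without WT TE library 3 that difference was 1.40 and passed (adjusted p = 0.0237, edgeR). The interaction was 2.74 ± 0.555 (adjusted p = 0.00692, edgeR). Sh2d1b1 shares 13.39% of its 50-base stretches with its neighbour Sh2d1b2, so part of its reads may be divided between these genes.

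**Figure D4:**
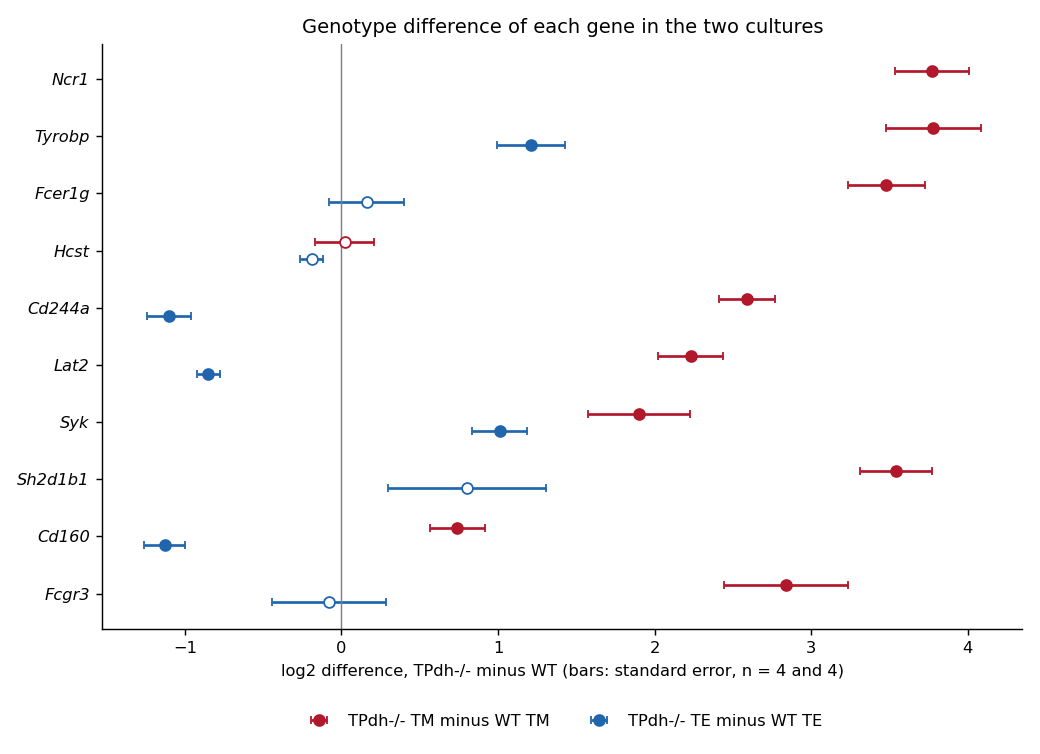
Log2 difference of each gene, TPdh-/- minus WT, in TM (red) and TE (blue); bars are standard errors over 4 and 4 libraries, and filled points passed the test. All TM values but that of Hcst are filled and right of 0, while TE values lie between -1.13 and 1.21; Ncr1 in TE is not drawn, since WT TE held 1 count.

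The comparison of TM with TE asks how far the culture itself sets these genes in each genotype. In TPdh-/- cells 8 of the 10 genes were higher in TM than in TE (33.0% of all tested genes) and 1, Lat2, was lower (34.7%, or 67.7% in either direction). In WT cells 3 were higher (Ncr1, Hcst and Syk, where 34.3% of all tested genes were) and 5 were lower (Fcer1g, Cd244a, Lat2, Cd160 and Fcgr3, also 34.3%, or 68.6% in either direction). The shares of all genes called were thus large in these comparisons, and the WT counts were near them. Fcer1g, Cd160 and Fcgr3 were lower in TM in WT cells and higher in TM in TPdh-/- cells, and each of the 3 passed the interaction test. Tyrobp and Sh2d1b1 passed in TPdh-/- cells (2.86 ± 0.272 and 1.78 ± 0.328) and did not in WT cells (0.29 ± 0.255 and -0.95 ± 0.448). These comparisons share groups with the genotype comparisons and add no separate evidence.

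Over the 16 libraries the genes formed sets of like pattern, given as description only, since the points share 4 groups. Cd244a and Lat2 were most alike (Pearson r = 0.98 of log2 CPM), followed by Fcer1g and Fcgr3 (0.92), Tyrobp and Syk (0.91) and Tyrobp and Sh2d1b1 (0.91). Tyrobp and Fcer1g reached 0.77, and Tyrobp and its neighbour Hcst 0.43. Of 10824 other genes, those most like Tyrobp were Pirb (r = 0.959), Pla2g7 (0.957), Lyz2 (0.947), Trdc (0.945) and Irgm1 (0.943). Those most like Fcer1g were Klrc1 (0.956), Klrc2 (0.951), Gas7 (0.943), Rgs1 (0.942) and Styk1 (0.930). Ncr1 was most like Acvr2a (0.991), Ddc (0.983), Klra8 (0.982), Pim1 (0.981) and Klra7 (0.967), and Syk most like Ctsh (0.963), Pirb (0.957), Tnfaip2 (0.955), Csf2rb (0.943) and Agbl3 (0.943).

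Most tested receptors of a list drawn up for pairing with Tyrobp, Fcer1g or Hcst were higher in TPdh-/- TM cells. Pairing is not established for every gene of the list, Clec7a and Treml2 among them. Of 29 listed 17 were tested. Of these 14 were higher and 3 did not pass (Treml2, Pilrb1 and Pilrb2), where 11.0% of all tested genes were higher and 7.27% lower. The median log2 difference of the 17 was 3.49, with Cd300lb included, whose counts are too few for a printed fold. Among the 14 were receptors known from macrophages and dendritic cells, such as dectin-1 (Clec7a, 3.69) and dectin-2 (Clec4n, 4.25), both named after their values were seen. Some of the 14 had enough counts to be tested only through TPdh-/- TM, the group where they are high. Klrb1a, Cd300ld and Cd300lb, also named later, averaged 0.869, 0.415 and 0.243 CPM there. Their means were 0.0713 CPM or less in every other group. The count of 14 was thus partly set by the filter and is description only. NK1.1 (Klrb1c), which pairs with Fcer1g, had 15 ± 4.11 CPM in TPdh-/- TM, against 1.22 ± 0.322 CPM in WT TM (3.62 ± 0.262, adjusted p = 1.75e-08, edgeR). NKG2C (Klrc2), a Tyrobp partner, had 16.8 ± 4.13 CPM in TPdh-/- TM, against 1.83 ± 0.567 CPM in WT TM (3.19 ± 0.291). NKG2D (Klrk1), a receptor that can signal through Hcst, had 99.5 ± 17.7 CPM in TPdh-/- TM, against 27.1 ± 3.13 CPM in WT TM (1.87 ± 0.154). Klrb1f had 5.56 ± 0.527 CPM in TPdh-/- TM, against 1.35 ± 0.0742 CPM in WT TM (2.04 ± 0.0788). Klrk1 thus passed where Hcst, an adaptor it can pair with, did not. In TE cells Klrk1 was lower in TPdh-/- (-1.43 ± 0.174, adjusted p = 9.42e-07, edgeR). There 10 of the 17 receptors were higher and 3 lower, beside 17.3% and 14.3% of all tested genes. Killer cell lectin-like receptor genes are close copies of each other, so reads may be divided among them.

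Of the 6 antigen receptor ITAM chains 2 were lower in TPdh-/- TM and 4 did not pass, where 7.27% of all tested genes were lower. Those lower were Cd247 (259 ± 12.8 CPM in TPdh-/- TM, against 309 ± 13 CPM in WT TM, -0.25 ± 0.0461) and Cd3e (287 ± 18.1 CPM, against 326 ± 18.1 CPM, -0.18 ± 0.0620). The B cell receptor chains Cd79a (0.97 ± 0.602, adjusted p = 0.146) and Cd79b (0.35 ± 0.323, adjusted p = 0.264, edgeR) did not pass. In TE cells 4 of the 6 were lower, where 14.3% of all tested genes were.

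Of 41 ITAM signalling kinases and adaptors 8 were higher and 8 lower in TPdh-/- TM (median -0.06), beside 11.0% and 7.27% of all tested genes. Among those higher were the Src family kinases Lyn (4.05 ± 0.785 CPM in TPdh-/- TM, against 1.2 ± 0.152 CPM in WT TM, 1.75 ± 0.171) and Yes1 (5.55 ± 1.15 CPM, against 1.96 ± 0.387 CPM, 1.5 ± 0.202) and the phospholipase Plcg2 (14.9 ± 1.79 CPM, against 9.14 ± 1.2 CPM, 0.70 ± 0.125). Among those lower were Sit1, a T cell adaptor (27.6 ± 2.62 CPM in TPdh-/- TM, against 39.3 ± 1.32 CPM in WT TM, -0.51 ± 0.0758), and the kinase subunit Pik3cd (567 ± 30.2 CPM, against 728 ± 95.7 CPM, -0.36 ± 0.0973). Zap70, the T cell relative of Syk, was also lower (-0.31 ± 0.106, adjusted p = 0.018, edgeR), named here after its value was seen. Like Cd244a, Lyn was lower in TPdh-/- TE (-0.52 ± 0.0613) and its interaction passed (2.27 ± 0.182, adjusted p = 8.09e-07, edgeR).

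Phosphatases and other brakes divided too, with 6 of 22 higher and 3 lower in TPdh-/- TM (median 0.05). Of all tested genes 11.0% were higher and 7.27% lower there, shares that also stand beside the other lists of this paragraph. The inhibitory receptors Pirb (1.92 ± 0.445 CPM in TPdh-/- TM, against 0.252 ± 0.108 CPM in WT TM, 2.95 ± 0.316) and Lilrb4a (56.1 ± 5.98 CPM, against 22.7 ± 2.12 CPM, 1.31 ± 0.101) were higher. The phosphatase SHP-1 (Ptpn6; 115 ± 5.35 CPM, against 195 ± 33.0 CPM, -0.76 ± 0.120) and the collagen receptor Lair1 (16.2 ± 1.77 CPM, against 27.3 ± 2.51 CPM, -0.76 ± 0.106) were lower. Of the SLAM family and its adaptors 2 of 8 tested were higher, Sh2d1a, which encodes SAP (61.8 ± 9.68 CPM in TPdh-/- TM, against 45.9 ± 5.67 CPM in WT TM, 0.43 ± 0.148), and Cd84 (183 ± 12 CPM, against 160 ± 4.46 CPM, 0.20 ± 0.0502). Cd48, the ligand of Cd244a, did not pass (-0.26 ± 0.0870, adjusted p = 0.0529, edgeR), nor did Slamf1 (-0.17 ± 0.0547, adjusted p = 0.102, edgeR). On the CD160 and HVEM axis 2 of 5 tested were higher, HVEM itself (Tnfrsf14, 0.40 ± 0.103) and Tnfsf14 (0.67 ± 0.204), and 2 lower, Btla (-0.33 ± 0.0704) and Cd5 (-0.66 ± 0.0912).

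Of 24 tested transcription factors of NK and innate-like T cells 9 were higher and 4 lower in TPdh-/- TM (median 0.21), beside 11.0% and 7.27% of all tested genes. Zeb2, which acts in NK cell and effector T cell maturation, had 7.13 ± 1.12 CPM in TPdh-/- TM, against 1.52 ± 0.18 CPM in WT TM (2.23 ± 0.148). Id2 (1.14 ± 0.210), Irf8 (1.10 ± 0.118) and Rora (0.99 ± 0.0835) were higher, and Id3 (-0.83 ± 0.135) and Bcl11b (-0.30 ± 0.0367), which keeps T cell identity, were lower. In TE cells 5 of the 24 were higher and 12 lower, beside 17.3% and 14.3% of all tested genes, with Zeb2 higher there as well (2.66 ± 0.318).

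**Figure D5:**
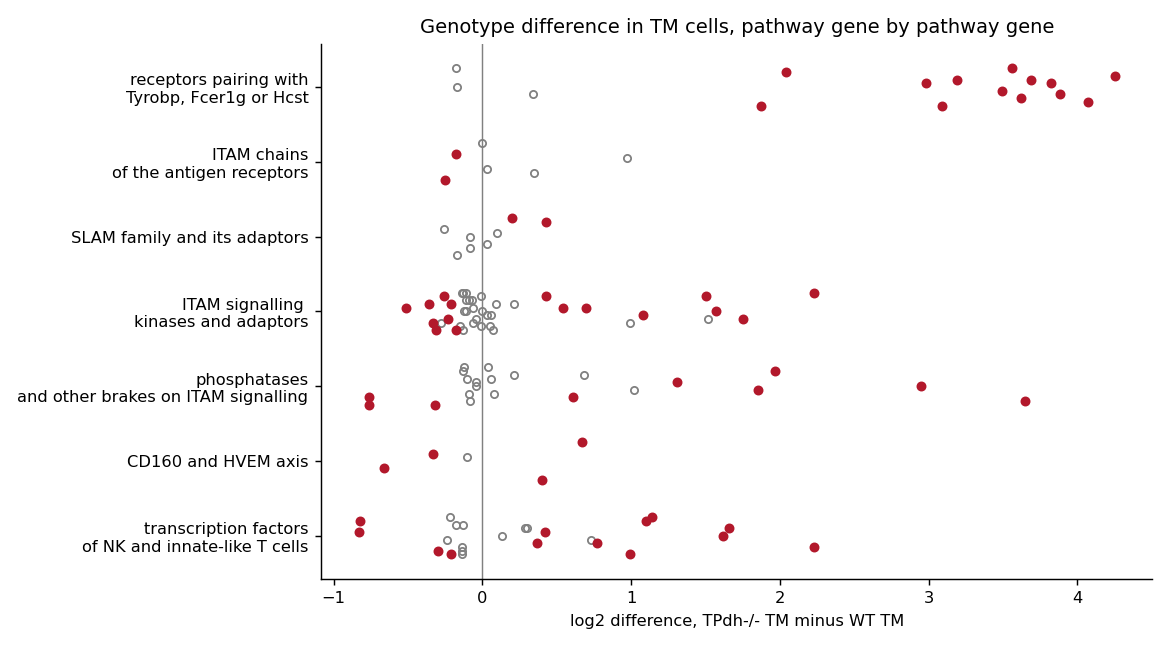
Log2 difference of each tested gene of 7 pathway lists, TPdh-/- TM minus WT TM; filled points passed the test, open points did not, and a gene with under 4 counts in a group is left out. Of the receptors listed as pairing with the innate adaptors 14 of 17 passed, and the antigen receptor chains lie between -0.25 and 0.97.

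Markers of other cell types moved with these genes, and their part in the results was not tested. Beside the marker counts, 11.0% of all tested genes were higher and 7.27% lower in TPdh-/- TM. In TPdh-/- TE these shares were 17.3% and 14.3%. Markers of low level may have had enough counts to be tested only through TPdh-/- TM, the group where they are high. Klra4, for example, averaged 2.14 CPM there and 0.143 CPM or less in every other group. The counts of called markers, in every list below, are thus description only. Of 8 NK markers 7 were higher in TPdh-/- TM, and their sum ran from 469 to 1100 TPM in TPdh-/- TM libraries, against 50.7 to 128 TPM in WT TM libraries. Gzma, which activated CD8+ T cells also express, made up 90.9% of it in TPdh-/- TM and 66.4% in WT TM. In TE cells the sum ran the other way, from 725 to 920 TPM in TPdh-/- libraries, against 1663 to 1871 TPM in WT libraries. Gzma made up 95.3% of it in TPdh-/- TE and 97.1% in WT TE. Without Gzma the TE sums were 32.7 to 44.8 TPM in TPdh-/- and 46.6 to 60.0 TPM in WT. By gene the list was split in TE, with 3 of the 8 higher in TPdh-/- and 3 lower. The markers Klrb1c, Klra4 and Klra8 are also in the list of pairing receptors.

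Of 16 macrophage and monocyte markers 10 were tested and 9 were higher in TPdh-/- TM, with a sum of 101 to 198 TPM, against 20.6 to 33.1 TPM in WT TM. Without Ccr2, the largest, the sums were 27.9 to 47.7 TPM in TPdh-/- TM, against 6.56 to 8.41 TPM in WT TM. Among TE libraries they were 14.9 to 24.5 TPM in TPdh-/- and 10.2 to 14.3 TPM in WT. Lyz2 had 17.7 to 28.8 TPM in TPdh-/- TM, against 2.14 to 3.14 TPM in WT TM. The defining marker Csf1r had 0.430 to 0.620 TPM in TPdh-/- TM, against 0.05 to 0.15 TPM in WT TM, and C1qb 0.290 to 1.33 TPM, against 0.06 to 0.1 TPM. Macrophages express Tyrobp, Fcer1g, Syk, Fcgr3 and Lat2. Tyrobp itself stood at 31.7 to 52.1 TPM in TPdh-/- TM libraries, against 2.08 to 4.33 TPM in WT TM libraries.

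B cell markers summed to 9.18 to 41.8 TPM in TPdh-/- TM, against 10.4 to 21.4 TPM in WT TM, with 1 of 8 called higher. Gamma-delta T cell genes were higher for 7 of 8 in both cultures, at 181 to 241 TPM in TPdh-/- TM, against 58.4 to 67.8 TPM in WT TM. Their TE sums were 218 to 330 TPM in TPdh-/- and 94.1 to 106 TPM in WT. Dendritic cell markers were higher for 3 of 5 tested, CD4 T cell markers for 3 of 5, mast cell and basophil markers for 1 of 3 and plasma cell markers for 1 of 6, with 1 lower. Of neutrophil markers 1 was tested and did not pass, and S100a9, Ly6g, Retnlg and Camp had 0 counts in TPdh-/- TM. Mast cell and basophil markers summed to 2.13 to 3.17 TPM in TPdh-/- TM, against 1.03 to 1.44 TPM in WT TM. Of that list Fcer1a and Tpsb2 had 0 counts in both TM groups. Cpa3 had 0.330 to 2.11 TPM in TPdh-/- TM, against 0.06 to 0.21 TPM in WT TM. None of 3 erythroid and platelet markers passed, and NKT markers, none of them tested, summed to 0.490 to 1.13 TPM in TPdh-/- TM, against 0.860 to 1.93 TPM in WT TM. CD8 T cell genes summed to 6303 to 6442 TPM in TPdh-/- TM, against 7367 to 7991 TPM in WT TM, with 7 of 11 lower.

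The 10 genes lie on 5 chromosomes of GRCm38, with Sh2d1b1 (chr1:170277320-170286769, ENSMUSG00000102418), Fcgr3 (chr1:171051174-171064935, ENSMUSG00000059498), Fcer1g (chr1:171229572-171234365, ENSMUSG00000058715) and Cd244a (chr1:171559193-171609746, ENSMUSG00000004709) within 1.33 megabases of chromosome 1. Ncr1 (chr7:4337724-4345164, ENSMUSG00000062524), Tyrobp (chr7:30413760-30417585, ENSMUSG00000030579) and Hcst (chr7:30417712-30419854, ENSMUSG00000064109) are on chromosome 7, Cd160 (chr3:96798763-96829351, ENSMUSG00000038304), Lat2 (chr5:134600022-134615025, ENSMUSG00000040751) and Syk (chr13:52583173-52648792, ENSMUSG00000021457) on their own. Of 43 other tested genes within 100 kb of them 3 were higher (6.98%) and 3 lower (6.98%) in TPdh-/- TM, beside 11.0% and 7.27% of all tested genes. Those higher were Fcgr2b (1.97, adjusted p = 0.00299), Cfap126 (1.70, adjusted p = 0.000859) and Pdzk1 (1.27, adjusted p = 0.0303, edgeR), and those lower were Limk1 (-0.45), Pias3 (-0.21) and Polr3c (-0.15). Fcgr2b shares stretches with Fcgr3, and Pdzk1 shares exon positions with Cd160 on the other strand. Ly9, which lies within the span of Cd244a, differed by 0.03 (adjusted p = 0.75, edgeR).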

How the data were processed

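RNA of 16 libraries (4 groups of 4) was sequenced after poly(A) selection without keeping the strand. The authors deposited RSEM 1.3.3 expected counts and TPM per gene from STAR 2.7.6a alignments to mm10 (GRCm38), per the submitters' processing notes, which also name DESeq2; the annotation release is not given in the sources used here. The expected counts were rounded to whole numbers and genes with too few counts were removed (filterByExpr of edgeR, minimum 10 in a library and 15 in all), which left 15277 of 55401. Groups came from the labels. All 16 libraries entered a single fit with TMM factors (edgeR 4.0.16, R 4.3.3), and 5 contrasts were tested by the quasi-likelihood test with Benjamini-Hochberg adjustment over all tested genes. CPM used TMM-scaled totals, and standard errors came from log2 CPM with a prior count of 2. The precision is limited by 4 libraries a group and a common biological coefficient of variation of 0.104. Groups with 3 or fewer counts received no fitted fold. The fit was tested on simulated data. Positions, shared 50-base stretches and coding bases came from GENCODE M21, and promoters from RefSeq.

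The genes, the 7 pathway lists and the 12 marker lists were chosen with earlier results of these data known. The text names all 10 genes, and from each pathway list the 4 with the smallest adjusted p in TM and up to 2 that went against the list, other names being marked as chosen later. Alternatives were DESeq2 1.42.0, upper quartile factors, library totals alone, no filter, limma-trend (limma 3.58.1) on log2 CPM and on log2(TPM + 0.1) and log2(TPM + 1), fits of the compared groups alone, and each library left out in turn. Leaving out libraries 5 and 12 together was added after seeing the data.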

Additional observations from a re-analysis of the deposited data

Results flagged for a closer look

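The genotype effect differed between the cultures for 7 of the 10 genes by the interaction test in edgeR, and in all 7 the value, effect in TM minus effect in TE on the log2 scale, was positive. It was 3.69 for Cd244a, 3.32 for Fcer1g, 3.08 for Lat2, 2.93 for Fcgr3, 2.74 for Sh2d1b1, 2.57 for Tyrobp and 1.87 for Cd160. For Cd244a, Lat2 and Cd160 the effects had opposite signs in the cultures, and each passed in both.

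A single library stood apart from the other 3 of its group in 3 of 40 groups of values, where chance gives about 1 in 20. Ncr1 had 0.0160 CPM, from 1 count, in WT TE library 3 and 0 in the others. Lat2 had 1.22 CPM in WT TM library 11, the highest of its group. Cd160 had 35.0 CPM in WT TM library 10, the lowest of its group.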

How the results depend on the processing

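No paired analysis was possible because the labels number the libraries 1 to 16 with no number shared between groups. Of 1238 pairs of a log2 difference and an alternative, over 50 log2 differences, 1219 kept their direction and their side of the threshold, and 40 of the 50 did so under every alternative. Values near 0 changed sign: Hcst in TM to -0.02, -0.01 and -0.12 without library 15, 16 or 12 and -0.13 without libraries 5 and 12 (-0.12 to 0.11 with any 1 library left out), Fcgr3 in TE to 0.00 on log2(TPM + 1), 0.12 and 0.04 without library 5 or 6 and 0.12 without libraries 5 and 12 (-0.41 to 0.12), and Fcer1g in TE to -0.06 without library 8 (-0.06 to 0.31). The Ncr1 interaction rests on 1 count in WT TE and changed sign to 0.54 on log2 CPM, 1.62 on log2(TPM + 0.1) (adjusted p = 0.000737, limma) and 2.11 on log2(TPM + 1) (adjusted p = 1.11e-06, limma). On log2(TPM + 1) Syk no longer passed in TE (0.30, adjusted p = 0.0672, limma) or between WT cultures (0.26, adjusted p = 0.064), and its interaction passed (0.58, adjusted p = 0.0246). The added constant compresses differences of genes with low TPM. Other calls gained without 1 library are given in the report. The number of genes lower in TPdh-/- TM than in TPdh-/- TE ranged from 1 to 2 when libraries were left out, with 2 without library 8. With expected counts in place of TPM, which do not allow for gene length, the share of Tyrobp and Fcer1g was 0.899% in TPdh-/- TM and 0.0672% in WT TM, and among TE cells 0.253% in TPdh-/- and 0.133% in WT. Leaving out libraries 5 and 12 was chosen after seeing the data. Depth limits Ncr1 in WT TE and Sh2d1b1 outside TPdh-/- TM, whose values rest on few counts.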
